A study of Homo sapiens with 12 samples.

Results

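The genes described here are 8 transcription factors of the pancreatic endocrine lineage, NEUROG3, NEUROD1, INSM1, NKX2-2, PAX6, ISL1, RFX6 and PDX1. They were taken by symbol from the count tables of QGP-1 and BON-1 cells, and all 8 were present among the 28008 genes of each table. QGP-1 and BON-1 are established cell lines from human pancreatic neuroendocrine tumors. The cells of all groups carry a tet-MUC1shRNA, a hairpin against the MUC1 transcript that doxycycline (DOX) induces. Each line was cultured with vehicle or with 500 ng/mL DOX for 7 days, and 3 cultures of each of the 4 groups were sequenced. No library of cells with a control hairpin was analysed here, so the effect of DOX itself and that of the hairpin cannot be told apart.

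In the developing pancreas, PDX1 marks the epithelium from which all pancreatic lineages arise, and a pulse of NEUROG3, a basic helix-loop-helix factor, commits single cells to the endocrine fate. NEUROG3 switches on NEUROD1, a related factor that stays on in mature islet cells, and INSM1, a zinc finger repressor used as a marker of neuroendocrine tumors. The homeodomain factors NKX2-2, PAX6, ISL1 and PDX1 and the winged helix factor RFX6 then set and maintain the identity of alpha, beta and other islet cells. NEUROG3 is shut off in mature cells, whereas the others persist in part of them.

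All 8 genes are protein coding and were located in the GENCODE v44 annotation of GRCh38, the assembly that the authors used. NEUROG3 lies on chromosome 10 (69571698 to 69573422), NEUROD1 on chromosome 2 (181668295 to 181680827), PAX6 on chromosome 11 (31784779 to 31817961) and NKX2-2 on chromosome 20 (21511017 to 21514064), all on the minus strand. INSM1 lies on chromosome 20 (20368104 to 20370949), ISL1 on chromosome 5 (51383448 to 51394730), RFX6 on chromosome 6 (116877212 to 116932161) and PDX1 on chromosome 13 (27920000 to 27926313), all on the plus strand. RefSeq promoter entries (GRCh38.p14) were found for 5 of the 8 genes, and none for INSM1, PDX1 and RFX6. The 250 bases before the start site are shown for ISL1 and PAX6, which were read in QGP-1 and not, or hardly, in BON-1 cells, and for NEUROG3, which was not expressed above a few counts in either line. Capitals mark the E-box CANNTG, the site that NEUROG3 and NEUROD1 bind with their partners, which reads the same on both strands.
NEUROG3 promoter, chr10:69573423-69573672, - strand: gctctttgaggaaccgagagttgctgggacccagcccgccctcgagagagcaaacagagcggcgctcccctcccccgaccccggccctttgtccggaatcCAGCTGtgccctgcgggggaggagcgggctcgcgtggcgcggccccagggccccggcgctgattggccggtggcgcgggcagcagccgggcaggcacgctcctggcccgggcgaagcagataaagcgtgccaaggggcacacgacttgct
ISL1 promoter, chr5:51383198-51383447, + strand: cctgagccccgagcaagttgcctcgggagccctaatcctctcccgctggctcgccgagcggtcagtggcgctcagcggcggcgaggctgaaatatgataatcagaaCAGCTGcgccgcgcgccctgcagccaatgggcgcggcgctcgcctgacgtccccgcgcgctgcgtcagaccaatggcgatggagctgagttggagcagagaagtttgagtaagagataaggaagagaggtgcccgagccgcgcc
PAX6 promoter, chr11:31817962-31818211, - strand: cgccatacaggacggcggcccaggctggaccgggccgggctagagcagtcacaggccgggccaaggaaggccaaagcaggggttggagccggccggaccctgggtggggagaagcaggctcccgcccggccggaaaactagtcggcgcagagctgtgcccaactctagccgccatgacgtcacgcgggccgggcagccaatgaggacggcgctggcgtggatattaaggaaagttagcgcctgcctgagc

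NEUROG3 and ISL1 held 1 E-box each, CAGCTG in both, which began 150 and 144 bases before the start. The PAX6 stretch, the one before the outermost of 9 annotated PAX6 starts, held none. Of the stretches before the other PAX6 starts, some held 1 to 3 E-boxes and the rest none. Of all 35116 RefSeq promoters, 61.8% held at least 1 such site in the same 250 bases, so its presence is common. The 3 stretches were rich in G and C, with 72% for NEUROG3, 65.2% for ISL1 and 68.4% for PAX6, against a median of 58% over all promoters.

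Sequencing depth was 38224144 to 50525926 counts per library in QGP-1 and 15981954 to 28484324 in BON-1 cells. With DOX, MUC1 fell by 2.91 on the log2 scale in QGP-1 (SE 0.23, edgeR adjusted p = 3.27e-07) and dropped by 2.79 in BON-1 cells (SE 0.22, edgeR adjusted p = 3.33e-11). All 8 markers of neuroendocrine cells had at least 10 counts in every library. Their summed level was 2092 to 2250 CPM (counts scaled to a common library size by TMM) in QGP-1 vehicle, 2481 to 2772 in QGP-1 DOX, 8118 to 11073 in BON-1 vehicle and 4640 to 5044 in BON-1 DOX libraries. CHGA alone had a mean of 2870 CPM in BON-1 DOX libraries, and its log2 difference between BON-1 and QGP-1 vehicle cells was 5.74. Of the 8 markers, 3 were called higher and 4 lower in BON-1 vehicle cells, against 39.4% and 38.1% of all genes. Their median log2 difference was -0.28. With DOX, 4 rose and 0 fell in QGP-1, against 17.5% and 17.8% of all genes. In BON-1 cells 1 rose and 5 fell, against 17.1% and 18.5%. Of the 6 acinar markers, 1 had 10 counts in every QGP-1 library, PRSS1, and their sum was 84.6 to 155 CPM with vehicle and 29.7 to 41.1 with DOX. In the other line the sum was 56.9 to 66.2 CPM with vehicle and 50.2 to 60.7 with DOX. The 6 ductal markers summed to 224 to 269 and 178 to 220 CPM in QGP-1, and to 703 to 797 and 842 to 956 in BON-1 cells. The 5 fibroblast markers stayed at or below 3.51 CPM in QGP-1 and 11.1 in BON-1, and the 4 leukocyte markers at or below 2.06 in QGP-1. In BON-1 cells the leukocyte sum, almost all of it from CD68, was 22.7 to 25.9 CPM with vehicle and 48.0 to 51.0 with DOX, and no BON-1 library had more than 1 count of the T cell gene CD3E. The part of these shifts in the results below was not tested.

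The lines used different sets of the 8 factors. INSM1, NKX2-2 and PDX1 were expressed in both lines, NEUROD1 and RFX6 in BON-1 alone, PAX6 and ISL1 in QGP-1 with at most 7 counts in BON-1, and NEUROG3 in neither. A gene is called expressed here when it had at least 10 counts in every library of a line. Among the 15032 genes expressed in at least 1 line by that rule, 83.1% were expressed in both, 2.61% in BON-1 with no more than 7 counts in any QGP-1 library, and 4.25% in QGP-1 with no more than 7 counts in any BON-1 library. The limit of 7 equals the highest PAX6 count in BON-1 cells, so these shares are a description and no test of the factors. Raw counts were used, without regard to the greater depth of the QGP-1 libraries.

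**Figure D1:**
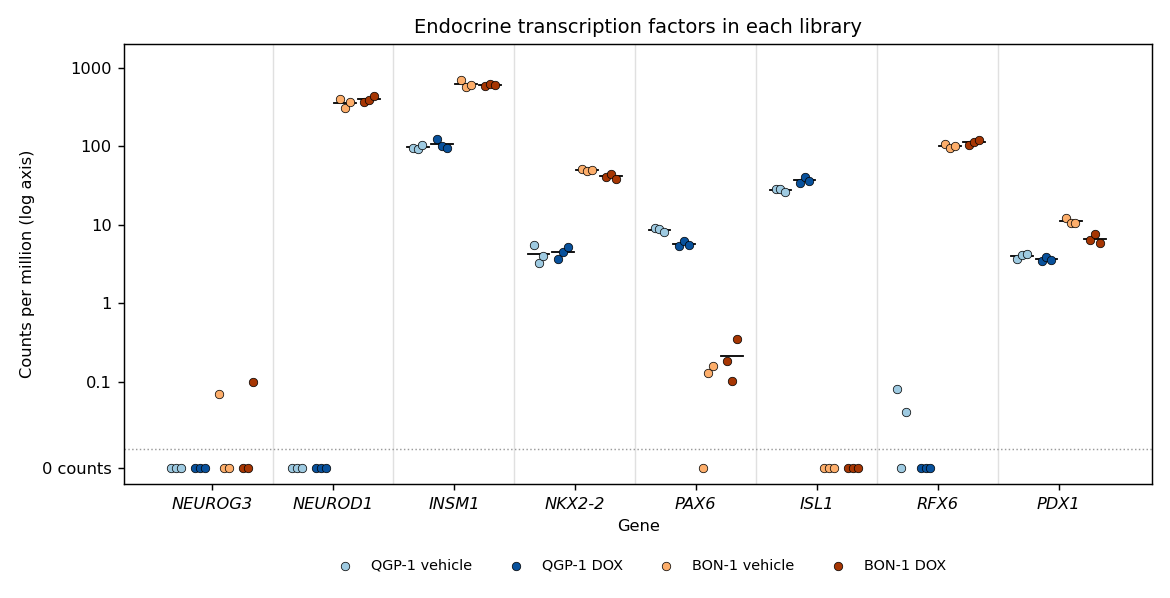
Normalized level of each factor in each of the 12 libraries, in CPM on a log axis. Each point is 1 library, the colors give the line and treatment, a short bar is the mean of 3 libraries where all had counts, and libraries with 0 counts sit below the dotted line. NEUROD1 and ISL1 sit at 0 counts in one line and between 25.98 and 439 CPM in the other.

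NEUROG3, which starts the endocrine program, had 0 counts in all 6 QGP-1 libraries. In BON-1 cells it had 2, 0 and 0 counts with vehicle and 0, 0 and 2 with DOX. These levels lie at or under the limit that a count of 0 allows, so no comparison of NEUROG3 was made. For QGP-1 vehicle cells that limit, 3 counts over the group, was 0.0235 CPM, and for BON-1 vehicle cells it was 0.0425 CPM (counting error only).

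NEUROD1, the factor that follows NEUROG3, was at 0 counts in every QGP-1 library. In BON-1 cells it had 11395, 7021 and 6747 counts with vehicle and 5917, 7710 and 8712 with DOX, which gave 353 ± 47.5 and 399 ± 36.8 CPM (SD, n = 3). The level in BON-1 vehicle cells was therefore at least 15180-fold that in QGP-1 vehicle cells, taking 3 counts over the QGP-1 group as the limit. With DOX the bound was 17068-fold.

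RFX6, which acts after NEUROG3 in islet cells, followed the same pattern. BON-1 cells had 3103, 2171 and 1873 counts with vehicle (101 ± 7.26 CPM) and 1685, 2248 and 2412 with DOX (113 ± 8.65 CPM). QGP-1 cells had 3, 0 and 2 counts with vehicle and 0 in the 3 DOX libraries. The pooled level was 2587-fold higher in BON-1 than in QGP-1 vehicle cells, with a 95% counting interval of 1108 to 7970, and at least 4848-fold higher with DOX.

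ISL1 and PAX6 showed the opposite pattern. ISL1, a LIM homeodomain factor of islet cells and motor neurons, had 1047, 1206 and 1260 counts in QGP-1 vehicle (27.6 ± 1.40 CPM) and 1623, 1547 and 1526 in QGP-1 DOX libraries (37.0 ± 2.94 CPM), and 0 counts in all 6 BON-1 libraries. Its level in QGP-1 was at least 647-fold higher with vehicle and 683-fold higher with DOX. PAX6, needed for glucagon and insulin gene expression, had 338, 368 and 390 counts in QGP-1 vehicle (8.62 ± 0.53 CPM) and 253, 241 and 233 in QGP-1 DOX cells (5.73 ± 0.47 CPM). BON-1 cells had 0, 3 and 3 PAX6 counts with vehicle and 3, 2 and 7 with DOX. The PAX6 level of vehicle cells was 101-fold higher in QGP-1 (95% counting interval 46.2 to 276), with 6 counts in all for BON-1. With DOX it was 26.4-fold higher (95% counting interval 15.0 to 51.4).

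The remaining 3 factors were present in both lines and higher in BON-1 cells. INSM1 was the most abundant, with 96.7 ± 5.36 CPM in QGP-1 vehicle and 620 ± 63.3 CPM in BON-1 vehicle cells. NKX2-2 was at 4.28 ± 1.11 CPM in QGP-1 vehicle and 49.6 ± 1.05 CPM in BON-1 vehicle cells, and PDX1 at 4.06 ± 0.31 and 11.1 ± 1.09 CPM. For each of these genes the lowest BON-1 vehicle library was above the highest QGP-1 vehicle library.

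In the edgeR comparison of 3 BON-1 with 3 QGP-1 vehicle libraries, 77.4% of all 15835 genes tested were called at an adjusted p below 0.05 (39.4% higher and 38.1% lower in BON-1). All 7 factors tested were called, 5 higher and 2 lower in BON-1 cells. NEUROD1, RFX6, PAX6 and ISL1 passed the filter on low counts only through the line where they are high. Their calls were thus fixed in advance, and the share of all genes can be set only against INSM1, NKX2-2 and PDX1. The log2 difference was 2.72 for INSM1 (SE 0.08, edgeR adjusted p = 5.16e-20), 3.58 for NKX2-2 (SE 0.14, edgeR adjusted p = 5.71e-17) and 1.49 for PDX1 (SE 0.16, edgeR adjusted p = 9.83e-09), which are 6.58-fold, 11.96-fold and 2.81-fold. PAX6 was lower in BON-1 by a log2 value of -6.56 (SE 0.38, edgeR adjusted p = 7.46e-14). NEUROD1 (edgeR adjusted p = 2.6e-20), RFX6 (edgeR adjusted p = 4.33e-24) and ISL1 (edgeR adjusted p = 1.24e-18) were called as well, with the bounds and intervals above in place of a fitted fold. Of all genes tested, 8.79% were called with a fitted log2 difference above 5 in size. The lines were grown in different media, and line, medium and library preparation cannot be told apart.

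Levels of different genes were compared with the TPM values deposited by the authors, which are per length. RN7SK, RN7SL1 and RN7SL2, abundant small noncoding RNAs, took between 50.9% and 80.3% of the TPM total of a library. TPM was therefore used here for the order of genes within a library. Tests on TPM across libraries were run only as an alternative, with limma, and carry these differing shares. In QGP-1 vehicle cells the order was INSM1 (12.99 ± 0.596 TPM, n = 3), ISL1 (3.89 ± 0.444), NKX2-2 (0.825 ± 0.268), PDX1 (0.605 ± 0.0098) and PAX6 (0.322 ± 0.0431). In BON-1 vehicle cells the order was INSM1 (217 ± 23.4 TPM, n = 3), NEUROD1 (46.1 ± 3.33), RFX6 (27.9 ± 3.73), NKX2-2 (24.9 ± 4.59) and PDX1 (4.34 ± 0.618). With DOX the order was the same in each line, and every factor was above the next in all 3 libraries of each of the 4 groups. The ranges of RFX6 and NKX2-2 in BON-1 vehicle, of NEUROD1, RFX6 and NKX2-2 in BON-1 DOX and of NKX2-2 and PDX1 in QGP-1 DOX libraries overlapped across libraries, in which the small RNAs took differing shares of TPM.

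INSM1 thus came first per length in every group. Relative to INSM1 in the same library, ISL1 was at 29.96% ± 3.08 in QGP-1 vehicle and NEUROD1 at 21.3% ± 1.06 in BON-1 vehicle cells (SD, n = 3). PDX1, the last of the 5 in BON-1 cells, was at 1.99% ± 0.0902 with vehicle and 1.22% ± 0.131 with DOX. PAX6, the last in QGP-1 cells, was at 2.47% ± 0.275 with vehicle and 1.52% ± 0.266 with DOX.

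**Figure D2:**
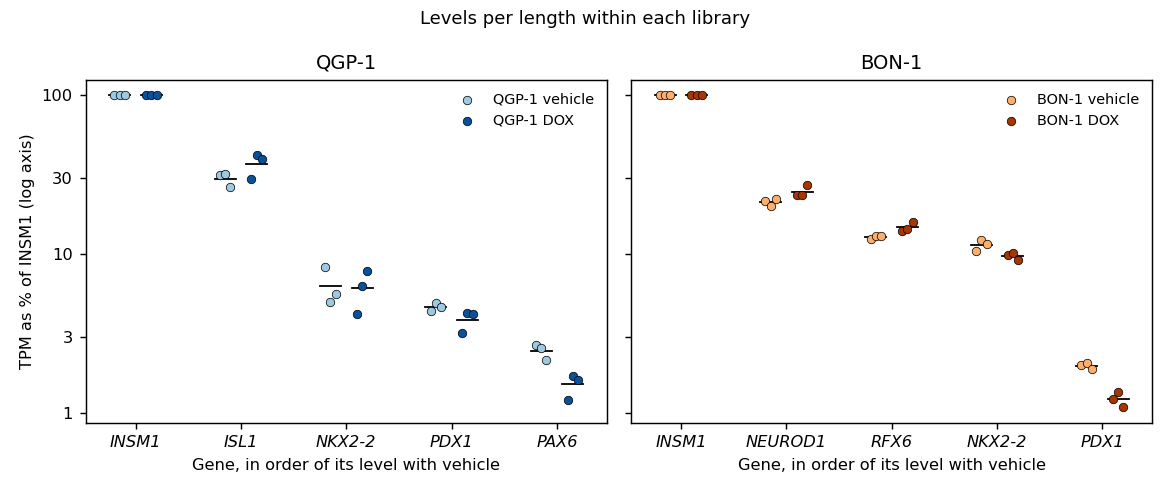
TPM of each factor expressed in a line as a percent of the INSM1 TPM of the same library, on a log axis, for QGP-1 (left) and BON-1 cells (right). Points are libraries and bars the mean of 3. INSM1 is 100 by definition, and PAX6 in QGP-1 and PDX1 in BON-1 cells are the lowest, at means of 1.22% to 2.47%.

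The response to DOX was tested within each line on the raw counts. In QGP-1 cells 5 of the 8 factors passed edgeR's filter on low counts, and 2 of the 5 were called, PAX6 lower and ISL1 higher, against 35.4% of all 15089 genes tested (17.8% lower and 17.5% higher). The share of factors called was close to that of all genes. Here and below a change in a bulk library cannot tell fewer expressing cells from less RNA per cell.

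PAX6 was at 9.09, 8.73 and 8.04 CPM in the 3 QGP-1 vehicle libraries and at 5.37, 6.27 and 5.55 CPM with DOX. Every DOX library was below every vehicle library. The log2 fold change was -0.59 (SE 0.14, edgeR adjusted p = 0.00444), a decrease to 0.665 of the vehicle level, and 16.5% of all genes tested had a larger change in either direction.

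ISL1 moved the other way in the same cells. Its levels were 28.2, 28.6 and 25.98 CPM with vehicle and 34.5, 40.2 and 36.4 CPM with DOX, without overlap. The log2 fold change was 0.42 (SE 0.09, edgeR adjusted p = 0.00229), or 1.34-fold, and 28.4% of all genes had a larger change. PAX6 and ISL1 kept their calls without any 1 of the 6 libraries, with adjusted p values up to 0.0215 for PAX6 and 0.0159 for ISL1.

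INSM1, NKX2-2 and PDX1 were not called in QGP-1 cells. INSM1 was at 93.9, 93.2 and 103 CPM with vehicle and 122, 100.4 and 95.2 with DOX, and the groups overlapped. Its log2 fold change was 0.13 (95% interval -0.06 to 0.32, edgeR adjusted p = 0.273). NKX2-2 varied most between vehicle libraries, at 5.49, 3.30 and 4.06 CPM against 3.63, 4.45 and 5.29 with DOX, and its interval of -0.39 to 0.51 (edgeR adjusted p = 0.858) leaves changes of either sign. PDX1 had a log2 fold change of -0.16 (95% interval -0.53 to 0.22, edgeR adjusted p = 0.529).

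**Figure D3:**
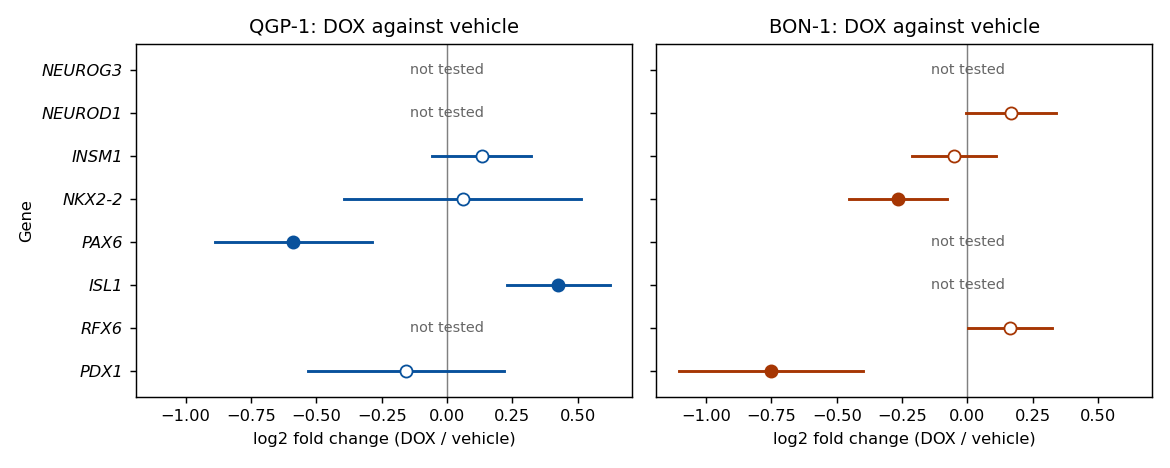
Log2 fold change of each factor between DOX and vehicle cells in QGP-1 (left) and BON-1 (right), with 95% intervals from the edgeR fit of 3 against 3 libraries. Filled points passed an adjusted p of 0.05 and open points did not. PAX6 (-0.59) and ISL1 (0.42) are filled in QGP-1, and PDX1 (-0.75) and NKX2-2 (-0.27) in BON-1 cells.

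For BON-1 cells 5 of the 8 factors were tested and 2 were called, both lower with DOX, PDX1 and NKX2-2, against 35.6% of all 14625 genes tested (18.5% lower). PDX1, which acts in the early pancreas and in beta cells, was at 12.4, 10.6 and 10.4 CPM with vehicle and 6.44, 7.59 and 5.90 CPM with DOX. All DOX libraries lay below all vehicle libraries. Its log2 fold change was -0.75 (SE 0.17, edgeR adjusted p = 7e-04), a decrease to 0.593 of the vehicle level, and 11.6% of all genes had a larger change. The call was kept without any 1 library, with adjusted p values up to 0.00892, and was lost with limma on TPM (-0.824, limma adjusted p = 0.147, where the median of all genes was -0.313).

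NKX2-2, a repressor needed for beta cell identity, changed less. It was at 50.7, 48.6 and 49.5 CPM with vehicle and 40.9, 44.95 and 38.8 CPM with DOX, without overlap. The log2 fold change was -0.27 (SE 0.09, edgeR adjusted p = 0.0229), and 49.2% of all genes had a larger change. Leaving out a single library ended the call in 3 cases, vehicle replicate 1 (edgeR adjusted p = 0.0561), vehicle replicate 3 (0.054) or DOX replicate 3 (0.0635), and so did a fit of all 12 libraries (0.145) and limma on TPM (0.469).

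NEUROD1, RFX6 and INSM1, the most abundant factors of BON-1 cells, were not called. NEUROD1 was at 397, 303 and 360 CPM with vehicle and 366, 393 and 439 with DOX, with a log2 fold change of 0.17 (95% interval -0.01 to 0.34, edgeR adjusted p = 0.128). Without vehicle replicate 1 it was called, at 0.25 (edgeR adjusted p = 0.0296). RFX6 was at 108, 93.6 and 99.98 CPM with vehicle and 104, 114 and 122 with DOX, with a log2 fold change of 0.16 (95% interval 0.003 to 0.32, unadjusted and edgeR adjusted p = 0.0462 and 0.107). The 3 DOX libraries of INSM1, at 584, 623 and 601 CPM, lay within the range of the vehicle libraries, 564 to 689 CPM, and its log2 fold change was -0.05 (95% interval -0.21 to 0.11, edgeR adjusted p = 0.66).

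Whether a factor responded differently in the lines was tested in the interaction of line and DOX. INSM1, NKX2-2 and PDX1, the factors with at least 10 counts in every library, were not called. Of 16598 genes, 16.9% were called (8.87% higher and 8.06% lower in BON-1). The other factors had few or no counts in one line, so the test could say little or nothing about them. The BON-1 response minus the QGP-1 response was -0.59 for PDX1 (SE 0.25, 95% interval -1.10 to -0.08, unadjusted and edgeR adjusted p = 0.0257 and 0.108), -0.32 for NKX2-2 (95% interval -0.74 to 0.10, adjusted p = 0.311) and -0.17 for INSM1 (95% interval -0.42 to 0.08, adjusted p = 0.367) on the log2 scale. The decreases of PDX1 and NKX2-2 in BON-1 were thus not shown to differ from QGP-1. PAX6, with at most 7 counts in any BON-1 library, had an interaction of 1.88 (SE 0.77, unadjusted and edgeR adjusted p = 0.0218 and 0.0963). RFX6, with 5 counts in all QGP-1 vehicle and 0 in QGP-1 DOX libraries, had a positive interaction (edgeR adjusted p = 0.0551), whose fitted size has no meaning beside a group at 0. NEUROD1 and ISL1, at 0 counts in every library of one line, gave no usable estimate.

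For each factor the genes nearest in profile were sought by the root mean square difference of log2 CPM over the 12 libraries after each gene's own mean was taken off, among genes averaging 1 log2 CPM or more. For NEUROD1 they were INA (0.18), LINC01419 (0.29) and CDH17 (0.30), where NEUROD1 itself ranged over 12.8 log2 units. For RFX6 they were HNF4A (0.34), IPW (0.36) and PLBD1 (0.39). All 6 had at most 3 counts in any QGP-1 library and at least 1095 in every BON-1 library. HNF4A, a nuclear receptor of liver, gut and pancreas progenitors, had 0 to 3 counts in QGP-1 and 1258 to 2399 in BON-1 cells.

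For ISL1 the nearest were DNER (0.34), BASP1 (0.43) and CX3CR1 (0.47), and for PAX6 they were GNAL (0.51), PTPN20 (0.51) and PCDHB13 (0.56), all far higher in QGP-1 cells. For INSM1 they were DUSP16 (0.11), DNAJC1 (0.12) and C12ORF75 (0.13), for NKX2-2 FLRT2 (0.23), TBXAS1 (0.23) and SMIM3 (0.25), and for PDX1 GCNT1 (0.12), NECTIN1 (0.14) and STPG1 (0.15). These likenesses are a description, and the difference between the lines makes up most of each profile.

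Genes that overlap or flank the factors were looked at as well. The 3′ end of PAX6 overlaps that of ELP4, a gene of the opposite strand, and the sources used here do not state whether reads were counted by strand. ELP4 had 9054 to 16200 counts in QGP-1 and 562 to 1126 in BON-1 cells, so PAX6 counts came to 1.91% to 3.17% of the ELP4 counts in QGP-1 and to at most 1.04% in BON-1 cells. ELP4 had a log2 fold change of -0.20 with DOX in QGP-1 (SE 0.09, edgeR adjusted p = 0.0882), against -0.59 for PAX6. CERKL, a gene of the same strand whose first exon overlaps that of NEUROD1, had 115 to 262 counts in BON-1 and 7 to 17 in QGP-1 cells. GPRC6A, the coding gene 48.1 kb to the left of RFX6, had 240 to 521 counts in BON-1 and 0 to 2 in QGP-1 cells, the pattern of RFX6 itself, whereas VGLL2 on its other side had 0 to 2 in both. The flanking genes of ISL1 and PAX6 (PARP8, PELO, IMMP1L and RCN1) were read in both lines, with at least 176 counts in every library.

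Most progenitor factors that precede NEUROG3 were higher in BON-1 than in QGP-1 cells. All 12 were tested in vehicle cells, and 10 were higher and 2 lower in BON-1, against 39.4% and 38.1% of all genes, with a median log2 difference of 2.25 against 0.03 over all genes. HNF4A (0 to 3 counts in QGP-1), a regulator of hepatocyte and gut genes, and PTF1A (0 counts), a regulator of acinar genes, had at least 417 counts in every BON-1 library. FOXA1 (-1.11) and ONECUT2 (-1.99) were the 2 that were lower. With DOX, 3 of the 8 tested in QGP-1 rose (log2 fold changes in parentheses here and below, QGP-1 first where both lines are given), ONECUT2 (0.92), FOXA1 (0.30) and HES1 (0.26), and none fell. In BON-1 cells 3 of 12 rose, among them ONECUT2 (0.83), and 4 fell, among them FOXA1 (-0.57) and GATA4 (-0.53). The shares called were 37.5% in QGP-1 and 58.3% in BON-1, against 35.4% and 35.6% of all genes. The medians were 0.16 in QGP-1 and 0.01 in BON-1, against -0.01 over all genes in each line.

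Of the 27 other islet and endocrine transcription factors, 20 were tested in QGP-1 with DOX, and 8 rose and 1 fell, against 17.5% and 17.8% of all genes. In BON-1 cells 17 were tested, and 7 rose and 3 fell, against 17.1% and 18.5%. The 5 that rose in both lines were ST18 (1.00 and 0.63), SOX4 (0.84 and 0.87), PROX1 (0.69 and 0.55), MYT1 (0.58 and 0.36) and HHEX (0.29 and 0.74). ST18 and MYT1 are zinc finger factors of 1 family, and SOX4 acts with NEUROG3 in endocrine differentiation. LMX1B fell in both (-0.37 and -1.82). FEV, the serotonergic factor, fell in BON-1 cells (-0.93). The medians of the list were 0.30 in QGP-1 and -0.03 in BON-1.

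The line pattern of this list was mixed, with 8 of 20 higher and 9 lower in BON-1 vehicle cells, close to the 39.4% and 38.1% of all genes. NKX6-1, a beta cell factor, had 33 to 44 counts in QGP-1 vehicle and 0 in all BON-1 libraries, and FEV had 352 to 560 in BON-1 vehicle and 0 in QGP-1 vehicle cells. PAX4 had at most 15 counts in any library and MAFA at most 17.

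Partners and antagonists of the 8 factors were expressed in both lines almost throughout, 25 of 26. In QGP-1 cells 9 of 25 rose and 4 fell with DOX, which is 52.0% called against 35.4% of all genes, and in BON-1 cells 4 rose and 12 fell, which is 64.0% against 35.6%. The medians were 0.00 and -0.12. The ID proteins, which bind and block the E proteins that NEUROD1 and NEUROG3 need, rose in QGP-1 cells, ID1 by 1.19 (SE 0.12), ID3 by 1.06 (SE 0.08), ID4 by 0.89 (SE 0.08) and ID2 by 0.64. In BON-1 cells ID1 (-0.60) and ID3 (-0.63) fell, ID2 rose (0.31), and ID4 was not called. The E protein gene TCF3 fell in BON-1 (-0.42, edgeR adjusted p = 0.00134) and had a log2 fold change of -0.05 in QGP-1 (edgeR adjusted p = 0.713). RCOR2, of the CoREST complex that INSM1 recruits, fell in BON-1 cells (-0.88, SE 0.16). REST, a repressor of neuronal and neuroendocrine genes, fell in both lines (-0.62 and -0.63). MEIS2, a homeodomain partner of PDX1, rose in both lines (0.30 and 0.26), while SSBP2, a cofactor in ISL1 complexes, fell in both (-0.71 and -0.27).

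**Figure D4:**
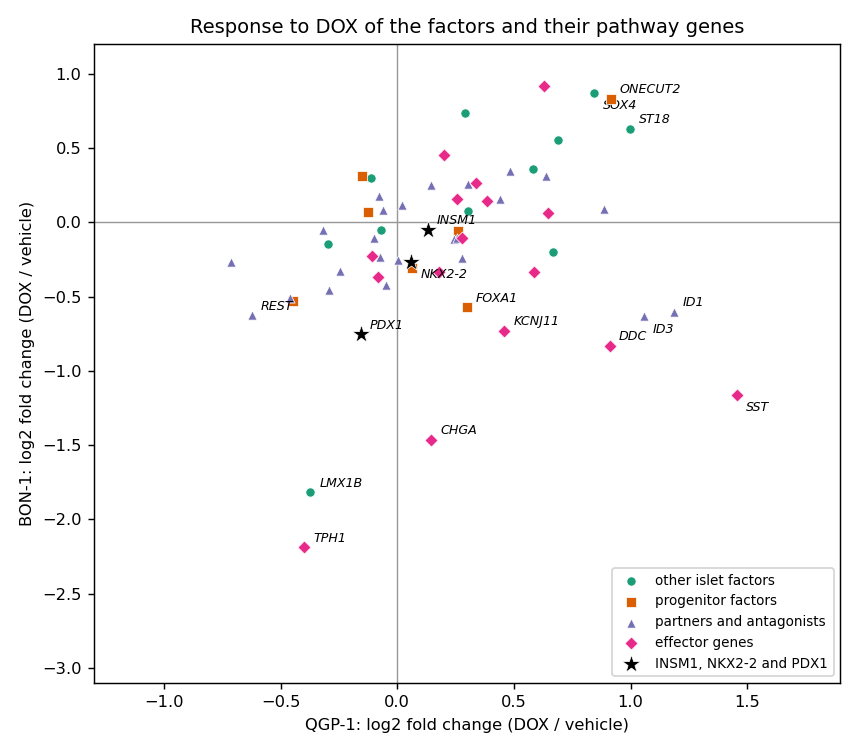
Log2 fold change with DOX in QGP-1 (horizontal) and BON-1 cells (vertical) for list genes tested in both lines that averaged 1 log2 CPM or more in each. Stars are INSM1, NKX2-2 and PDX1, and other symbols give the list. SST (1.46 and -1.16), DDC (0.91 and -0.83), ID1 and ID3 lie far to the right and below 0, whereas ST18, SOX4 and ONECUT2 lie above 0 in both lines.

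Endocrine effector genes, the hormones, processing enzymes and secretory granule genes that these factors serve, mostly rose where called in QGP-1 and mostly fell where called in BON-1 cells. In QGP-1 cells 10 of 18 rose and 2 fell, against 17.5% and 17.8% of all genes, with a median of 0.27. In BON-1 cells 4 of 18 rose and 9 fell, against 17.1% and 18.5% of all genes, with a median of -0.28. Opposite calls in the lines were held by 4 genes and the same call by 3. SST, the somatostatin gene, rose from 104 to 285 CPM in QGP-1 (log2 fold change 1.46, SE 0.09, edgeR adjusted p = 4.47e-08) and fell from 7.30 to 3.29 CPM in BON-1 cells (-1.16, SE 0.23, edgeR adjusted p = 0.000119). DDC (0.91 and -0.83), KCNJ11 (0.46 and -0.73) and PAM (0.59 and -0.34) also rose in QGP-1 and fell in BON-1 cells. PCSK1N (0.63 and 0.92) and SCG3 (0.34 and 0.27) rose in both lines. TPH1, the first enzyme of serotonin synthesis, fell in both (-0.40 and -2.19), and CHGA fell in BON-1 cells (-1.46, SE 0.10, edgeR adjusted p = 1.35e-12). TTR rose in BON-1 cells (2.54, SE 0.12) and had 0 counts in QGP-1. INS and IAPP, beta cell products, had 0 counts in every library, and GCG had at most 7. UCN3 had 599 to 1597 counts in QGP-1 and 0 in BON-1 cells. In the interaction test 8 of 19 effector genes were lower and 0 higher in BON-1 relative to QGP-1 cells, against 8.06% and 8.87% of all genes, with a median of -0.37 against 0.00 over all genes.

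The closest relatives of the factors were mostly low, and 11 of 25 were not tested between the lines. NEUROD2, NEUROD4 and NEUROG1 had at most 4 counts in any library and NEUROG2 at most 8. NKX2-1, a relative of NKX2-2 that marks lung and thyroid, had 2719 to 4023 counts in QGP-1 and 0 in BON-1 cells, and rose by 0.28 with DOX (SE 0.07, edgeR adjusted p = 0.0093). CDX2, an intestinal factor near PDX1 on chromosome 13, fell with DOX in both lines, with log2 fold changes of -0.74 (SE 0.21, edgeR adjusted p = 0.0119) and -1.27 (SE 0.18, edgeR adjusted p = 5.56e-07). Among the relatives of RFX6, RFX7 rose (0.45) and RFX5 fell (-0.23) in QGP-1, and RFX1 fell (-0.46) in BON-1 cells. Of 14 relatives tested in QGP-1, 2 rose and 2 fell, and of 10 in BON-1, 1 rose and 3 fell. These shares called, 28.6% and 40.0%, were near the 35.4% and 35.6% of all genes.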

How the data were processed

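RNA-seq covered 3 vehicle and 3 DOX libraries of each line. Per the labels, the libraries were made with a stranded mRNA kit, and the submitters' processing notes name STAR and DESeq2 and the builds GRCh38 and hg38. The authors deposited raw counts per gene, and TPM values made from counts of 25540 of the genes, for each line. The counting program and its use of strand are not given in the sources used here. No column of per-sample values was left unused.

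The main test was that of edgeR 4.0.16, run in R 4.3.3 (filterByExpr, TMM, robust quasi-likelihood fit, Benjamini-Hochberg over all genes tested), with calls at an adjusted p below 0.05 and no minimum fold change. The 4 fits were DOX against vehicle in each line, the lines with vehicle, and the interaction in all 12 libraries. CPM was scaled by TMM over the 12 libraries. The standard error is the log2 fold change divided by the square root of F, and its interval uses the degrees of freedom of the fit. Ratios of pooled CPM carry exact Poisson intervals at 95%, and 3 counts over a group stand for a count of 0. These cover counting error only. Replicate pairs differed by more than sampling noise (chi-square per gene 5.72 to 28.2). The labels say triplicate cultures without more, so p-values measure the spread between these libraries. Alternatives were DESeq2 1.42.0, library size scaling, a replicate block, no filter, a minimum of 10 counts in each library, limma 3.58.1 on log2(TPM + 1) and log2(TPM + 0.1) where TPM averaged 1 or more, 1 fit of 12 libraries, and leaving out each library. The code was tested on simulated counts.

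The factors, the lists and the rule for named genes were chosen with earlier results of these data known. Named were the 8 factors, MUC1, up to 4 called genes per list and comparison with the largest fold change above a mean log2 CPM of 1, genes of a count of 5 or fewer, and the 3 nearest profiles of each factor. Other list genes that are named (NKX6-1, PAX4, MAFA, INS, IAPP, GCG, TCF3 and relatives with few counts) and genes beside the factors were chosen after their values were seen. Some genes of the lists enter their counts and sums but are not reported here by name. Profiles were sought without Y-linked genes.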

Additional observations from a re-analysis of the deposited data

Results flagged for a closer look

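Responses to DOX that differed between the lines were taken from the interaction test in edgeR over all lists. Values are the BON-1 response minus the QGP-1 response on the log2 scale, each with an adjusted p below 0.05. None of the 8 factors was among them.

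Among other islet factors these included FEV (-5.56), LMX1B (-1.43), ST18 (-0.357), TOX3 (0.423), HHEX (0.457) and INSM2 (1.74). FEV was unread in QGP-1 vehicle cells and had at most 6 counts in any QGP-1 library, so its fitted size has no meaning. INSM2 rests on 3 to 31 counts in QGP-1, and its edgeR adjusted p was 0.0496. Among progenitor factors they included FOXA1 (-0.857), FOXA2 (-0.363) and SOX9 (0.474).

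Among partners and antagonists they included ID1 (-1.78), ID3 (-1.68), ID4 (-0.783), SSBP3 (-0.51), KDM1A (-0.348), ID2 (-0.318) and SSBP2 (0.455). Among effector genes and neuroendocrine markers they included SST (-2.62), TPH1 (-1.78), DDC (-1.73), CHGA (-1.6), KCNJ11 (-1.18), SV2A (-1.04), PAM (-0.912), ABCC8 (-0.571) and SYP (-0.508). The relative RFX7 (-0.527), the acinar marker PRSS1 (1.1) and the ductal marker TFF1 (1.4) were also among them.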

How the results depend on the processing

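Some calls held with DESeq2, library size scaling, no filter, the replicate block, 1 fit of 12 libraries and without any 1 library. They were those of PAX6 and ISL1 in QGP-1, of PDX1 in BON-1, and of INSM1, NKX2-2 and PDX1 between the lines with vehicle. The calls of NEUROD1, RFX6, PAX6 and ISL1 between the lines were fixed in advance, so that they were kept shows nothing. With 10 counts in every library, 3 factors were higher and 0 lower in BON-1 vehicle cells, because the other 4 were no longer tested. In 1 fit of 12 libraries 2 factors, PAX6 and RFX6, were lower with DOX in QGP-1, where RFX6 had too few counts for the fit of that line alone, and 1 in BON-1, where NKX2-2 lost its call. Leaving out 1 library left 0 to 1 factor higher and 1 to 2 lower in BON-1 cells. Directions also turned without a call for INSM1 in BON-1 (-0.122 to 0.0223) and NKX2-2 in QGP-1 (-0.0964 to 0.273).

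On the TPM scale the median of all genes shifted by 0.595 in QGP-1, -0.313 in BON-1, 1.11 between the lines and -0.885 for the interaction with a pseudocount of 1, and by 0.726, -0.37, 1.33 and -1.07 with 0.1. With 1 and with 0.1 this gave 9256 and 9260 called genes in QGP-1 (5336 from counts), 270 and 292 in BON-1 (5201), and 8100 and 8435 for the interaction (2810). Then 3 factors were higher and 0 lower in QGP-1, 0 were lower in BON-1, where PDX1 (-0.824 and -1.08, limma adjusted p = 0.147 and 0.144) and NKX2-2 lost their calls, 1 was lower between the lines, and 3 were lower in the interaction. NEUROD1 (-0.187 and -0.193) and RFX6 (-0.191 and -0.201) turned negative in BON-1 cells, and lay 0.126 and 0.122 above the median of all genes with a pseudocount of 1. PAX6 and PDX1 in QGP-1 were below the TPM minimum and not tested.

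Whether the replicate numbers pair the samples was not settled. Deviations of same-numbered libraries correlated at -0.08, -0.05 and 0.13 in BON-1, -0.13, 0.19 and 0.13 in QGP-1, and 0.22, 0.07 and 0.14 between the lines. Those of differently numbered libraries ran from -0.16 to 0.19 in BON-1 and from -0.39 to 0.27 in QGP-1. Between the lines they ran from -0.16 to 0.04. With the replicate block 5535 genes were called in QGP-1, 5277 in BON-1, 12394 between the lines and 2845 in the interaction, and no call of a factor changed. The order of the factors per length was the same without any 1 library and with CPM per union exon length of the annotation, an alternative chosen after seeing the data. The planned use of lengths recovered from counts and TPM restates TPM and could not change it.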
